A study of Sus scrofa with 12 samples.

Results

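The enzymes of the mitochondrial respiratory chain, together with the ATP synthase that they power, were represented by 63 genes measured in pig fat cells and ovarian granulosa cells before and after dedifferentiation in culture. These were all the genes whose annotation symbol started with NDUF, UQCR, ATP5 or COX4 to COX8, or was SDHA, SDHB, SDHC, SDHD or CYC1, out of 6765 genes with a symbol on the array. A probe set is a group of short array probes summarised to 1 value, and where a gene had several, the one with the highest mean over the 12 arrays stood for the gene, which took 63 of 80 matching probe sets. Complex I had 32 subunits, complex II 4, complex III 2, complex IV 8 and complex V, the ATP synthase, 14, and the NDUF prefix also brought in 3 assembly factors of complex I. NDUFA4, which carries a complex I name but is a component of complex IV, was placed there, and ATP5S, coupling factor B, was placed with complex V. CYC1 and the listed symbols of mitochondrially encoded genes had no probe set of their own here and were not analysed, so every value below concerns a nuclear gene.

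Complex I takes electrons from NADH and complex II takes them from succinate, complex III hands them to cytochrome c, and complex IV gives them to oxygen. Complexes I, III and IV pump protons across the inner mitochondrial membrane, and complex V uses the returning protons to make ATP. Complex II pumps none, is encoded wholly in the nucleus, and is also an enzyme of the citrate cycle. In fat cells mitochondria burn fatty acids and export citrate for lipid synthesis, and in granulosa cells they also hold the first step of steroid hormone synthesis.

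The study asked which genes and functions go up or down when specialised cells lose their identity in culture. Mature adipocytes (MA) came from pig fat tissue, and dedifferentiated fat cells (DFAT) arose from MA in ceiling culture, where the buoyant adipocytes settle on the upper wall of a filled flask, and had grown to semiconfluence. Granulosa cells (GC) came from ovarian follicles, and dedifferentiated granulosa cells (DFOG) were their progeny grown in vitro to semiconfluence. Each group had 3 arrays, titled biological replicates, and the labels name no breed, sex, age or number of animals. Loss of identity and other consequences of growth in culture cannot be told apart by this design.

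DFOG replicates 2 and 3 were nearly identical (their differences had an SD of 0.0741, and the 11 other replicate pairs 0.31 to 0.621) and were counted as 1 sample, their mean, which leaves n = 2 in DFOG and n = 3 elsewhere. The adipocyte markers averaged 12.9 to 13.2 per sample in MA and 6.64 to 7.87 in DFAT, and the granulosa markers 9.71 to 9.90 in GC and 5.96 to 6.05 in DFOG. However, the granulosa markers CYP19A1 and FOXL2 in GC (4.95 and 5.56) did not differ from DFOG (5.12 and 5.61) or MA (5.03 and 5.70). The actin 3′ minus 5′ difference, a measure of RNA integrity and labelling, was larger in isolated than in cultured cells. It was 1.88 ± 0.52 for MA, 1.35 ± 0.55 for GC, 0.61 ± 0.33 for DFAT (SD, n = 3 each) and 0.39 ± 0.33 for DFOG (SD, n = 2). Its part in the results was not tested beyond a fit that holds it as a covariate. In both lineages its values did not overlap between isolated and cultured cells, so that fit cannot fully separate it from culture. The arrays had been set to a common distribution, so each change is relative to the other RNA of the array. Centring on the poly-A spike controls instead moved every probe set by 1 constant per comparison, 0.63 for DFAT minus MA, -0.79 for DFOG minus GC, -1.35 for MA minus GC, 0.08 for DFAT minus DFOG and 1.42 for the difference between the fat and the granulosa change. Values below are log2 levels or log2 differences, and a gene "rose", "fell" or "differed" where limma's moderated test gave a Benjamini-Hochberg adjusted p under 0.05 over all 23999 probe sets. Apart from the median signals of gene sets, levels are compared between groups only, never between genes. In bulk RNA, fewer cells of a type and less RNA per cell cannot be told apart.

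**Figure D1:**
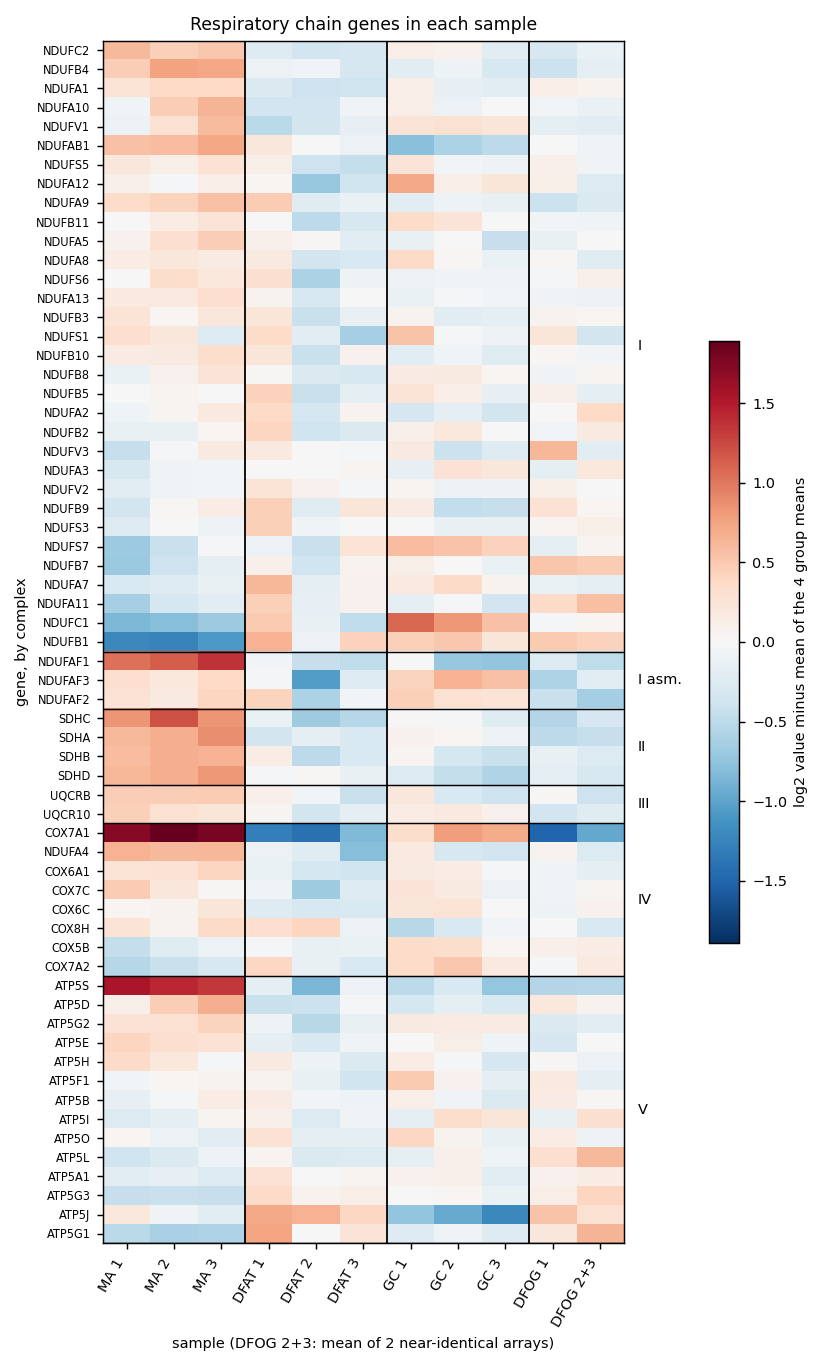
Log2 value of each of the 63 genes in each sample, minus the mean of the 4 group means of that gene, with genes ordered by complex. The colour scale ends at the largest deviation, that of COX7A1 in MA. The 4 SDH genes are highest in all 3 MA samples, while NDUFB1 and NDUFC1 are lowest there. The colours follow the arrays as deposited, and centring on the poly-A controls would move each group by a constant.

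The change from MA to DFAT addresses what ceiling culture did to the respiratory chain of fat cells. Of the 63 genes, 22 fell (34.9%, against 16.4% of all probe sets and 20.4% of named genes), 5 rose (7.94%, against 15.7% of all probe sets and 20.7% of named genes) and 36 did not pass. These shares, here and below, come from dimmer probe sets. The median signal was 10.95 for the 63 genes, 8.13 for named genes and 6.53 for all probe sets, and 59 of the 63 lay above the median of named genes. The median change was -0.30, against -0.07 over all probe sets and -0.02 over named genes, and after poly-A centring it was 0.33, with 14 genes higher and 3 lower. Changes ran from -2.98 for COX7A1 to 1.52 for NDUFB1, and 6 genes changed more than 2-fold. All 4 measured subunits of complex II and both of complex III fell, as did 4 of 8 of complex IV and 6 of 32 of complex I, while complex V had 4 lower and 3 higher genes of 14. Differences between the complexes were not tested, and the count of complex I is near the share of named genes that fell.

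Complex II was lower in DFAT as a whole, with a median change of -0.93, which kept its sign at -0.29 after poly-A centring although no call remained there. SDHA, the flavoprotein that oxidises succinate, read 11.68, 11.75 and 11.94 in MA, 10.71, 10.89 and 10.78 in DFAT, 11.15, 11.10 and 10.97 in GC, and 10.57 and 10.62 in DFOG. The 4 groups did not overlap, with MA highest, then GC, then DFAT, then DFOG. SDHA fell 1.996-fold in fat cells, by -0.997 ± 0.14 on the log2 scale (SE, limma adjusted p = 0.000193). SDHB, the iron-sulphur subunit that carries the electrons onward, read 12.08, 12.19 and 12.16 in MA, 11.64, 11.01 and 11.21 in DFAT, 11.55, 11.17 and 11.07 in GC, and 11.36 and 11.24 in DFOG. MA alone stood above the rest, and the other 3 groups overlapped. Its change in fat cells was -0.86 ± 0.19 (SE, limma adjusted p = 0.00488).

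The membrane anchors of complex II, which bind ubiquinone, moved with its catalytic subunits in fat cells. SDHC read 11.02, 11.38 and 11.01 in MA, 10.06, 9.51 and 9.65 in DFAT, 10.21, 10.16 and 9.96 in GC, and 9.63 and 9.87 in DFOG. Every MA sample lay above every other sample, and DFAT overlapped both GC and DFOG. SDHC had the largest fall of the complex, 2.64-fold or -1.40 ± 0.18 (SE, limma adjusted p = 0.000135). SDHD read 11.94, 12.001 and 12.13 in MA, 11.28, 11.33 and 11.18 in DFAT, 11.06, 10.87 and 10.74 in GC, and 11.13 and 11.01 in DFOG. MA was again highest, and GC and DFOG overlapped at the low end. SDHD changed by -0.76 ± 0.14 in fat cells (SE, limma adjusted p = 0.00156). A second probe set for SDHA fell too, from 10.96 ± 0.27 to 9.79 ± 0.45 (SD, n = 3 each), by -1.17 ± 0.37 (SE, limma adjusted p = 0.0338), whereas a second one for SDHB did not pass in fat cells (-0.25 ± 0.19, SE, limma adjusted p = 0.38). The fall of all 4 SDH genes kept its call in every alternative other than poly-A centring, each left-out array included.

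**Figure D2:**
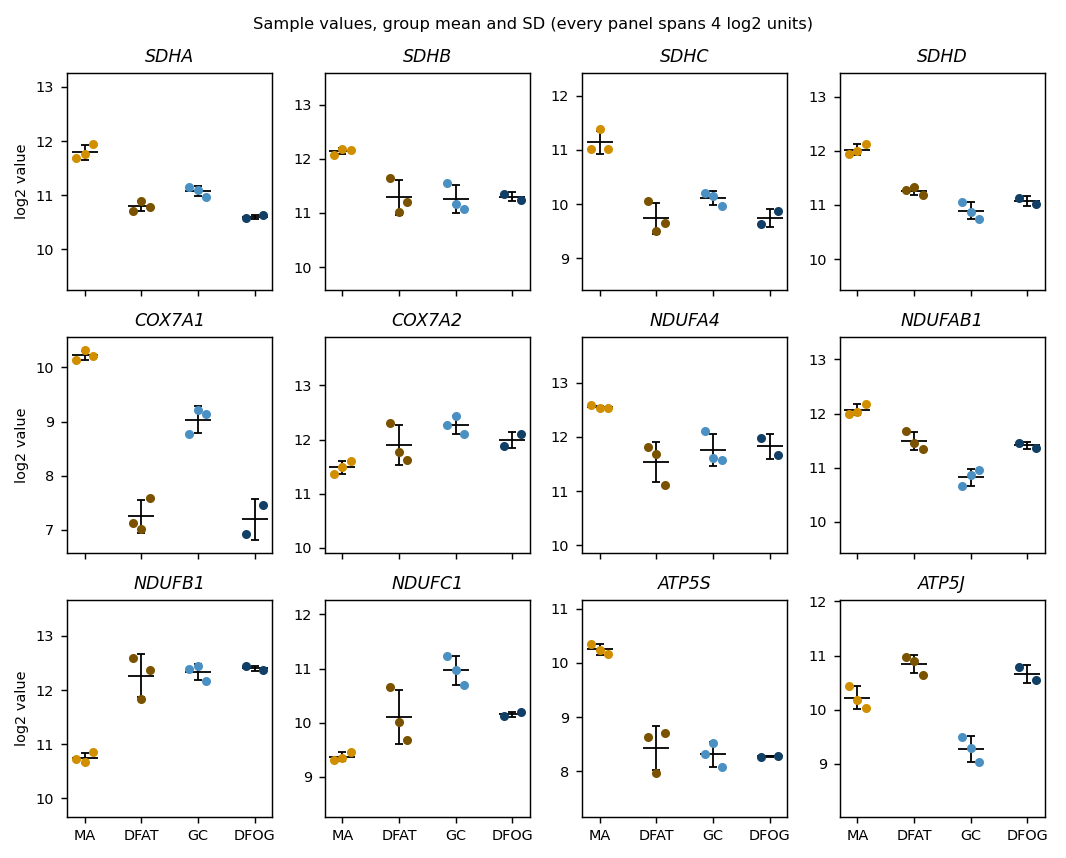
Log2 value of 12 respiratory chain genes in each sample, with group means as horizontal bars and SD as error bars (n = 3 in MA, DFAT and GC, n = 2 in DFOG). Each panel spans 4 log2 units, starts at its own level and has no zero. The 4 SDH genes and ATP5S stand apart in MA, COX7A1 is low in both cultured groups, and NDUFC1 and NDUFAB1 lie between MA and GC in both cultured groups, which holds for the arrays as deposited.

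In complex IV, cytochrome c oxidase, 4 of 8 genes fell in fat cells and none rose. The median change of -0.48 turned to 0.15 after poly-A centring. COX7A1, the isoform of subunit VIIa typical of heart and skeletal muscle, read 10.14, 10.31 and 10.21 in MA, 7.13, 7.01 and 7.60 in DFAT, 8.76, 9.22 and 9.13 in GC, and 6.93 and 7.46 in DFOG. Both cultured groups lay below both isolated groups and overlapped each other, and MA lay above GC. COX7A1 fell 7.87-fold in fat cells, by -2.98 ± 0.21 (SE, limma adjusted p = 1.13e-06), a call kept in all 21 alternatives. COX7A2, the isoform of the same subunit found in most tissues, read 11.37, 11.49 and 11.61 in MA and 12.31, 11.77 and 11.62 in DFAT. The groups met almost edge to edge, and the change of 0.41 ± 0.19 did not pass (SE, limma adjusted p = 0.139). Markers of skeletal muscle averaged 4.65 to 4.77 in MA and 4.94 to 5.43 in DFAT over 14 of 18 listed genes, with MYL1 and TNNT1 higher and 1 gene lower in DFAT. The lower one was CKM, the muscle creatine kinase, which read 5.45 ± 0.45 in MA and 4.25 ± 0.20 in DFAT (SD, n = 3 each, limma adjusted p = 0.0013). The myosin genes MYH2 and MYH7 read 3.29 and 5.32 in MA and 3.30 and 4.85 in DFAT and did not pass. The part of muscle markers in the COX7A1 result was not tested.

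NDUFA4, an accessory component of cytochrome c oxidase, read 12.58, 12.54 and 12.54 in MA, 11.81, 11.69 and 11.12 in DFAT, 12.10, 11.62 and 11.56 in GC, and 11.99 and 11.66 in DFOG. The MA samples were close together and above all others, which overlapped. It fell 2.02-fold in fat cells, by -1.02 ± 0.21 (SE, limma adjusted p = 0.00339). COX6A1, the widely expressed isoform of subunit VIa, fell from 13.07 ± 0.08 to 12.48 ± 0.13 (SD, n = 3 each), and COX7C, a small membrane subunit, from 12.88 ± 0.23 to 12.32 ± 0.30 (SD, n = 3 each), with changes of -0.59 ± 0.14 (SE, limma adjusted p = 0.00679) and -0.57 ± 0.19 (SE, limma adjusted p = 0.0424). The COX7C call was lost under 9 of 21 alternatives. A second COX7C probe set fell by -1.63 ± 0.22 (SE, limma adjusted p = 0.000167). The remaining complex IV genes COX5B, COX6C and COX8H changed by 0.17, -0.39 and -0.03, and none of them passed.

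Complex I had a median change of -0.26 in fat cells, or 0.37 after poly-A centring, and 24 of its 32 genes did not pass. In the electron input module, which binds NADH, 1 of 7 genes passed, NDUFV1, which fell. None of the 5 genes of the quinone module passed, and the proton-pumping membrane arm had 5 lower and 2 higher genes of 20. With 20.4% of named genes lower and 20.7% higher, these counts do not set any of the modules apart, and differences between them were not tested. NDUFC2 and NDUFB4, accessory subunits of the membrane arm, fell by -0.83 ± 0.14 (SE, limma adjusted p = 0.000921) and -0.82 ± 0.15 (SE, limma adjusted p = 0.00154). NDUFC2 read 11.29 to 11.45 in MA and 10.48 to 10.59 in DFAT, and NDUFB4 12.29 to 12.59 and 11.51 to 11.76, so neither gene overlapped between the groups. NDUFV1, the flavoprotein where NADH is oxidised, and NDUFA10 changed by -0.60 each, and both calls were lost without MA replicate 2 or 3 and without DFAT replicate 1 or 2. The NDUFV1 call was also lost with the actin difference as a covariate (-0.83, limma adjusted p = 0.0749).

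Against this direction, NDUFB1, a small accessory subunit of the membrane arm, read 10.72, 10.67 and 10.85 in MA, 12.60, 11.83 and 12.37 in DFAT, 12.40, 12.44 and 12.16 in GC, and 12.44 and 12.37 in DFOG. MA stood alone at the low end and the other 3 groups overlapped. NDUFB1 rose 2.87-fold in fat cells, by 1.52 ± 0.19 (SE, limma adjusted p = 0.000107), and kept its call in all 21 alternatives. Of these, poly-A centring adds 0.63 in this comparison and could only raise the change. NDUFC1, another small accessory subunit, read 9.31, 9.34 and 9.47 in MA, 10.65, 10.01 and 9.67 in DFAT, 11.23, 10.97 and 10.703 in GC, and 10.12 and 10.19 in DFOG. MA and GC were the extremes and both cultured groups lay between them. NDUFC1 rose by 0.74 ± 0.23 in fat cells (SE, limma adjusted p = 0.0317), a call lost with the actin difference as a covariate (0.36, limma adjusted p = 0.554) and without MA replicate 1, 2 or 3 or DFAT replicate 1 or 2.

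NDUFAB1, the mitochondrial acyl carrier protein, is a subunit of complex I and also carries the growing chain in mitochondrial fatty acid synthesis. It read 12.002, 12.03 and 12.18 in MA, 11.67, 11.46 and 11.34 in DFAT, 10.66, 10.86 and 10.96 in GC, and 11.46 and 11.37 in DFOG. MA was highest and GC lowest, with both cultured groups between them and overlapping each other. The fall in fat cells was -0.58 ± 0.15 (SE, limma adjusted p = 0.0114), lost with the actin difference as a covariate (-0.59, limma adjusted p = 0.131). The direction of NDUFA1, a subunit needed to build the membrane arm, depended on the probe set. The representing one fell from 11.69 ± 0.06 to 11.01 ± 0.06 (SD, n = 3 each), by -0.69 ± 0.14 (SE, limma adjusted p = 0.00282). The other, of a kind whose probes can match several transcripts, rose from 8.15 ± 0.38 to 11.04 ± 0.60 (SD, n = 3 each), by 2.89 ± 0.32 (SE, limma adjusted p = 3.71e-05), and the mean of both rose by 1.10.

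Among the 3 assembly factors of complex I, NDUFAF1, which helps to join its membrane arm, read 8.60, 8.71 and 8.93 in MA, 7.51, 7.14 and 7.09 in DFAT, 7.56, 6.85 and 6.82 in GC, and 7.31 and 7.08 in DFOG. MA stood above the other 3 groups, which overlapped. NDUFAF1 fell 2.83-fold in fat cells, by -1.50 ± 0.22 (SE, limma adjusted p = 0.000273), kept in all 21 alternatives. NDUFAF3 changed by -0.74 ± 0.24 (SE, limma adjusted p = 0.0356), lost without DFAT replicate 2, without any 1 MA replicate and without GC replicate 3, and NDUFAF2 by -0.36 ± 0.22 (SE, limma adjusted p = 0.27). The NDUFAF3 call was also lost with the actin difference as a covariate (-0.37, limma adjusted p = 0.555). The 2 measured genes of complex III both encode small non-catalytic subunits. UQCR10 fell from 11.60 ± 0.12 to 11.12 ± 0.20 (SD, n = 3 each) and UQCRB from 12.06 ± 0.01 to 11.47 ± 0.27 (SD, n = 3 each), with limma adjusted p = 0.0297 and 0.0466, and both lay slightly above 0 after poly-A centring (0.15 and 0.04). UQCR10 lost its call without MA replicate 1 or 2 or DFAT replicate 2 or 3, and UQCRB without any 1 MA replicate, DFAT replicate 2 or 3 or GC replicate 2 or 3. The UQCR10 call was also lost with the actin difference as a covariate (-0.32, limma adjusted p = 0.414) and under quantile normalization again (-0.41, limma adjusted p = 0.074). The representing probe sets of UQCRB and NDUFAF2 are also of the kind whose probes can match several transcripts.

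Complex V moved in both directions, with a median change of 0.04 in fat cells and 0.67 after poly-A centring. ATP5S, a soluble protein that associates with the ATP synthase, read 10.36, 10.24 and 10.16 in MA, 8.63, 7.96 and 8.70 in DFAT, 8.32, 8.53 and 8.08 in GC, and 8.27 and 8.29 in DFOG. Only MA was high, and the other 3 groups overlapped. ATP5S fell 3.53-fold in fat cells, by -1.82 ± 0.21 (SE, limma adjusted p = 4.44e-05), kept in all 21 alternatives. ATP5D and ATP5E, the delta and epsilon subunits of the central stalk, fell by -0.70 ± 0.18 (SE, limma adjusted p = 0.011) and -0.51, while the catalytic subunits ATP5A1 and ATP5B changed by 0.31 and 0.03 and did not pass. With the actin difference as a covariate neither ATP5D (-0.80, limma adjusted p = 0.085) nor ATP5E (-0.29, limma adjusted p = 0.426) passed.

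The 3 genes ATP5G1, ATP5G2 and ATP5G3 encode the same mature c subunit, the protein of the rotating ring, from different transcripts. ATP5G1 read 10.48, 10.37 and 10.402 in MA, 11.74, 10.98 and 11.23 in DFAT, 10.75, 10.91 and 10.74 in GC, and 11.20 and 11.63 in DFOG, and ATP5G3 rose from 12.28 ± 0.01 to 12.89 ± 0.15 (SD, n = 3 each). In both genes MA was lowest and did not overlap DFAT. ATP5G1 rose by 0.90 ± 0.20 (SE, limma adjusted p = 0.00493) and ATP5G3 by 0.61 ± 0.14 (SE, limma adjusted p = 0.00669). ATP5G2 went the other way, from 12.001 ± 0.08 to 11.43 ± 0.24 (SD, n = 3 each), by -0.57 ± 0.15 (SE, limma adjusted p = 0.012), which poly-A centring turned to 0.06. ATP5J, coupling factor 6 of the peripheral stalk, read 10.45, 10.18 and 10.03 in MA, 10.97, 10.91 and 10.64 in DFAT, 9.50, 9.29 and 9.03 in GC, and 10.78 and 10.54 in DFOG. GC was lowest, then MA, and the cultured groups overlapped each other at the top. It rose by 0.62 ± 0.18 in fat cells (SE, limma adjusted p = 0.0205), lost with the actin difference as a covariate and with the mean of both its probe sets. The second ATP5J probe set was near the floor (2.77 in MA and 2.91 in DFAT), so that mean was a weak check.

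With the actin difference as a covariate, 11 of the 27 genes called in fat cells were lost, leaving 14 lower and 2 higher, and complex II kept all 4. The actin difference was 1.5 to 2.47 in MA and 0.33 to 0.972 in DFAT, so this fit cannot fully separate it from culture. Some lost genes kept their size, such as NDUFAB1 (-0.59), and others shrank, such as NDUFC1 (0.36). Without MA replicate 2, without MA replicate 3 or without DFAT replicate 1, 3 genes rose in place of 5. Markers of other cells moved with this comparison. Macrophage markers, 8 of 11 measured, averaged 5.82 to 6.83 in MA and 4.47 to 4.76 in DFAT, with 6 lower, and endothelial markers, 6 of 6 measured, averaged 5.52 to 6.08 and 4.85 to 5.14, with 3 lower. C1QC, a macrophage complement gene with the largest fall of that list, read 4.74, 8.12 and 8.40 in MA and 3.37 to 3.65 in DFAT. TYROBP, a signalling adaptor of the same list, read 6.21 ± 0.35 in MA and 6.86 ± 0.81 in DFAT (SD, n = 3 each) and did not pass. Their part in the respiratory chain changes was not tested.

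**Figure D3:**
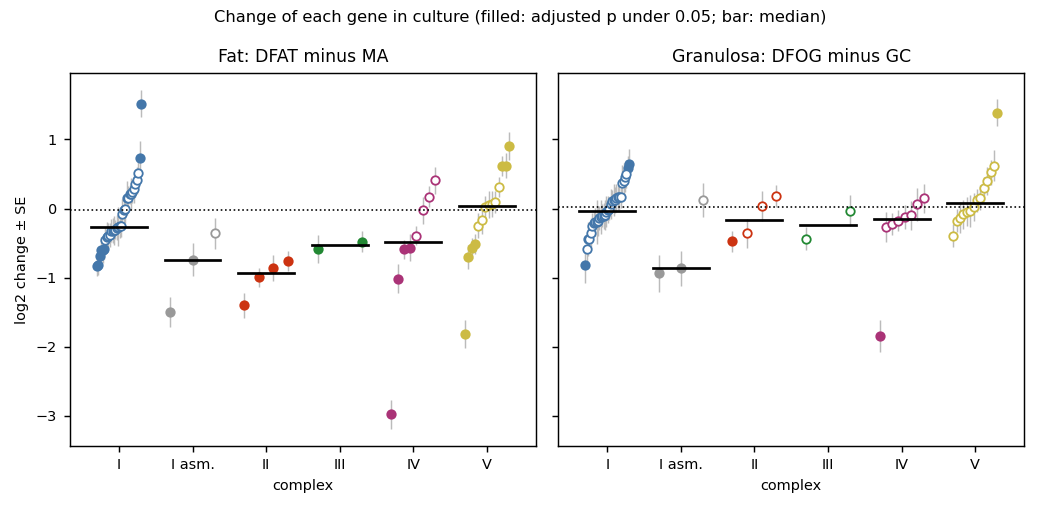
Log2 change in culture of each gene, with its SE, in fat cells (DFAT minus MA, left) and granulosa cells (DFOG minus GC, right). Genes are sorted by change within each complex, filled points have a limma adjusted p under 0.05, bars are medians of a complex and the dotted line is the median of all named genes. All 4 complex II genes are filled and below 0 on the left, where poly-A centring would raise each point by 0.63, and 1 of them is filled on the right, where it would lower each point by 0.79.

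In granulosa cells few respiratory chain genes passed on the arrays as deposited. From GC to DFOG 3 genes rose (4.76%, against 12.3% of all probe sets and 17.3% of named genes), 5 fell (7.94%, against 12.6% and 13.4%) and 55 did not pass. The median change was -0.04, and the median size of a change was 0.175, against 0.408 over named genes. In fat cells these sizes were 0.407 and 0.474. After poly-A centring the median change was -0.83, with 27 genes lower and none higher. On the deposited scale the 95% interval of the change lay within 2-fold for 55 of the 63 genes. Some markers of other cells moved in this comparison as well. All 3 smooth muscle and pericyte markers rose, as did CD14 of 8 macrophage, PECAM1 of 6 endothelial and TNNT1 of 14 skeletal muscle markers. INSL3 of 3 theca markers (-3.01) and GDF9 of 4 oocyte markers (-1.80) fell, and no erythrocyte or brown fat marker passed. Their part in the respiratory chain changes was not tested.

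COX7A1 fell in granulosa cells too, 3.59-fold or by -1.84 ± 0.23 (SE, limma adjusted p = 0.000145). It was the only granulosa call kept in all 21 alternatives, of which poly-A centring adds -0.79 and could only lower it. ATP5J rose 2.62-fold, by 1.39 ± 0.20 (SE, limma adjusted p = 0.000389), the only other change over 2-fold. In complex I, NDUFA11, a membrane arm subunit, rose from 10.17 ± 0.17 (SD, n = 3) to 10.82 ± 0.15 (SD, n = 2), by 0.65 ± 0.21 (SE, limma adjusted p = 0.0455), NDUFAB1 rose by 0.59 ± 0.17 (SE, limma adjusted p = 0.0237), and NDUFC1 fell by -0.81 ± 0.26 (SE, limma adjusted p = 0.0414). The assembly factor NDUFAF2 fell from 8.18 ± 0.10 (SD, n = 3) to 7.31 ± 0.16 (SD, n = 2) and NDUFAF3 from 9.73 ± 0.12 (SD, n = 3) to 8.79 ± 0.27 (SD, n = 2), with limma adjusted p = 0.0272 and 0.025. The NDUFAF2 call was lost with the mean over its probe sets (-0.41, limma adjusted p = 0.144). Its second probe set was near the floor (2.89 in GC and 2.92 in DFOG), so that mean was a weak check. In complex II the representing probe set of SDHA fell by -0.48 ± 0.15 (SE, limma adjusted p = 0.0431), a call lost in 11 of 21 alternatives. The second SDHA probe set changed by -0.063 in granulosa cells (limma adjusted p = 0.948), and the mean over both by -0.27 (limma adjusted p = 0.516). SDHB, SDHC and SDHD changed by 0.04, -0.36 and 0.18 and did not pass, although a second SDHB probe set fell by -1.30 (limma adjusted p = 0.00104). Neither gene of complex III passed (-0.43 for UQCR10 and -0.03 for UQCRB).

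Same-numbered GC and DFOG samples deviated together in these data, although no shared animal or culture was given. With the replicate number as a block within each lineage 1 gene rose and 3 fell. NDUFA11 (0.66, limma adjusted p = 0.0785), NDUFAB1 (0.61, limma adjusted p = 0.0544), NDUFC1 (-0.85, limma adjusted p = 0.0521) and SDHA (-0.48, limma adjusted p = 0.0793) kept their size and lost their call there. The number that rose was 1 without GC replicate 1, GC replicate 2 or DFOG replicate 1 and 5 without DFAT replicate 1, and the number that fell was 1 without GC replicate 2 or DFOG replicate 1, 2 without GC replicate 1 or 3, and 3 without MA replicate 2 or DFAT replicate 2. All counts of the granulosa comparison thus rest on few samples. With the actin difference as a covariate 5 of the 8 calls were lost, leaving 1 higher and 2 lower. The actin difference was 0.72 to 1.76 in GC and 0.154 to 0.619 in DFOG, so here too the fit cannot fully separate it from culture.

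Of the genes called in either cell type, SDHA, COX7A1 and NDUFAF3 fell in both and ATP5J rose in both by their representing probe sets. Only COX7A1 kept both calls in all 21 alternatives. Of 21 alternatives, SDHA lost its call in 1 in fat and 11 in granulosa cells, NDUFAF3 in 7 and 4, and ATP5J in 6 and 1. NDUFAB1 fell in fat and rose in granulosa cells, and NDUFC1 rose in fat and fell in granulosa cells. A further 18 genes fell in fat cells alone by these calls, 3 rose there alone, and 34 passed in neither. The difference between the changes was tested directly as an interaction, fat change minus granulosa change. It passed for 13 genes, 11 with a lower change in fat cells (17.5%, against 11.7% of all probe sets and 15.9% of named genes) and 2 with a higher one (3.17%, against 11.6% and 13.2%). After poly-A centring, which adds 1.42 to each difference, these counts were 0 lower and 38 higher, so the direction of the group as a whole rests on the scaling. Among markers of other cells, 6 of 8 macrophage genes and 3 of 6 endothelial genes also had a lower change in fat cells, and none of these 2 lists a higher one. In the theca, skeletal muscle and oocyte lists 1 gene each had a higher change, INSL3 (2.63), TNNT1 (1.48) and GDF9 (0.78). In the smooth muscle and pericyte list RGS5 (-5.48) and in the brown fat list CIDEA (-5.49) had a lower one. Their part in these differences was not tested.

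By the representing probe sets, the largest differences were those of ATP5S, -1.78 ± 0.31 (SE, limma adjusted p = 0.00165), NDUFAF1, -1.62 ± 0.33 (SE, limma adjusted p = 0.00397), and NDUFAB1, -1.17 ± 0.22 (SE, limma adjusted p = 0.00305), on the lower side. On the higher side they were those of NDUFC1, 1.55 ± 0.35 (SE, limma adjusted p = 0.00771), and NDUFB1, 1.45 ± 0.29 (SE, limma adjusted p = 0.00396). Other probe sets of ATP5L (-2.35, limma adjusted p = 7.25e-05) and COX7C (-2.14, limma adjusted p = 0.000758) differed more. The representing ones of these 2 genes were at -0.43 and -0.47 and did not pass. A second probe set of ATP5S was at -0.89 and did not pass (limma adjusted p = 0.0952), and a second one of NDUFAF1 was at -1.11 (limma adjusted p = 0.0272). The calls of NDUFC1 and NDUFB1 were kept in all 21 alternatives. Poly-A centring adds 1.42 to each difference, so it could only raise both and did not check their direction. COX7A1, which fell in both cell types, fell further in fat cells (-1.13 ± 0.31, SE, limma adjusted p = 0.0214), a call lost without MA replicate 2. In complex II the change was lower in fat cells for SDHB (-0.89 ± 0.29, SE, limma adjusted p = 0.0437), SDHC (-1.04 ± 0.28, SE, limma adjusted p = 0.0184) and SDHD (-0.94 ± 0.21, SE, limma adjusted p = 0.00761), which poly-A centring turned to 0.53, 0.38 and 0.48 with no call. The SDHB difference depended on the probe set. Its second probe set differed the other way, by 1.06 ± 0.29 (SE, limma adjusted p = 0.0214), the mean over both by 0.081 (limma adjusted p = 0.869), and the call of the representing one was lost in 12 of 21 alternatives. The NDUFA1 difference of -0.86 ± 0.21 (SE, limma adjusted p = 0.012) became -0.041 with the mean over its probe sets (limma adjusted p = 0.946). The SDHA difference of -0.52 ± 0.21 did not pass (SE, limma adjusted p = 0.0975). With the block within each lineage SDHB was lost (-0.84, limma adjusted p = 0.0704), as was NDUFB4 (-0.73, limma adjusted p = 0.0691). Without DFOG replicate 1 there were 6 lower genes and without MA replicate 2 there were 7, and without DFAT replicate 2 there were 4 higher ones.

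The isolated cells were compared to see which respiratory chain genes differed between the cell types before culture. MA exceeded GC in 18 genes (28.6%, against 20.7% of all probe sets and 26.8% of named genes) and lay below it in 6 (9.52%, against 19.7% and 22.6%), with 39 not passing. The higher count is near the share of named genes, and the lower one is below it. The median difference of 0.14 turned to -0.05 when the arrays were quantile normalized again and to -1.21 after poly-A centring, where 51 genes were lower in MA and none higher. This comparison shares the MA and GC arrays with those above, so a gene that is high in MA enters both. Markers of other cells differed here too. All 8 measured macrophage markers were higher in MA, with sample means of 5.82 to 6.83 against 4.21 to 4.46 in GC, as were 4 of 6 endothelial markers, with 5.52 to 6.08 against 4.43 to 4.57. Of the 14 skeletal muscle markers, CKM, MYH7 and TNNC2 were higher in MA and none lower, with sample means of 4.65 to 4.77 against 4.46 to 4.50. Other lists had genes lower in MA, thus higher in GC. These were INSL3 (-2.65) of the theca, GDF9 (-0.63) of the oocyte and RGS5 (-1.13) of the smooth muscle and pericyte list, and no gene of these lists was higher. In the brown fat list CIDEA (7.56) was higher in MA and PPARGC1A (-1.59) lower. Their part in the differences below, those of the muscle types COX7A1 and COX8H included, was not tested.

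ATP5S was 3.84-fold higher in MA than in GC (1.94 ± 0.21, SE, limma adjusted p = 1.86e-05), NDUFAF1 3.19-fold (1.67 ± 0.22, SE, limma adjusted p = 8.67e-05) and NDUFAB1 2.37-fold (1.25 ± 0.15, SE, limma adjusted p = 4.83e-05). All 4 SDH genes were higher in MA, by 0.72 for SDHA, 0.88 for SDHB, 1.03 for SDHC and 1.13 for SDHD, a direction that poly-A centring turned to between -0.63 and -0.21 with no call. The second SDHB probe set was at -0.31 and did not pass, and the mean over both gave 0.29 and no call (limma adjusted p = 0.199). In complex IV COX7A1 (1.19), NDUFA4 (0.79) and COX8H (0.52), the heart and muscle type of subunit VIII, were higher in MA and COX7A2 (-0.77) and COX5B (-0.50) lower. The isoforms of subunit VIIa thus went opposite ways, COX7A1 with a limma adjusted p = 0.000753 and COX7A2 with a limma adjusted p = 0.00747. After poly-A centring COX7A1 was at -0.16 and no longer differed.

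NDUFC1 was 3.03-fold lower in MA than in GC (-1.60 ± 0.23, SE, limma adjusted p = 0.00021), NDUFB1 2.997-fold lower (-1.58 ± 0.19, SE, limma adjusted p = 5.55e-05) and NDUFS7, a quinone module subunit that holds the last iron-sulphur cluster before ubiquinone, 1.87-fold lower. NDUFS7 read 9.40, 9.67 and 10.06 in MA and 10.68, 10.63 and 10.53 in GC, so the groups did not overlap, and differed by -0.90 ± 0.21 (SE, limma adjusted p = 0.00492). These 3 genes and COX7A2 kept their calls in all alternatives run for this comparison. Poly-A centring adds -1.35 here, so it could only take them further below 0 and did not check their direction. ATP5G3 was lower in MA by -0.40 and ATP5J higher by 0.95, the former lost with the replicate block (-0.40, limma adjusted p = 0.0634), which also ended the COX8H call (0.52, limma adjusted p = 0.0714). The ATP5J call was lost with the mean over its probe sets (0.34, limma adjusted p = 0.0797), the second of which read 2.77 in MA and 3.04 in GC.

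After culture no representing probe set of a respiratory chain gene differed between DFAT and DFOG by limma, against 3.7% of all probe sets higher and 4.31% lower and 4.86% and 5.5% of named genes. At an unadjusted p under 0.05 there were 3, namely ATP5L (-0.63 ± 0.18, SE), a membrane subunit of the ATP synthase, NDUFB7 (-0.58 ± 0.20, SE) and NDUFA1 (-0.44 ± 0.16, SE), the smallest limma adjusted p being 0.0614 for ATP5L. Taking all 12 arrays as separate samples or weighting arrays by quality, 1 gene was lower in DFAT and none higher, as was the case without DFAT replicate 1. The 95% interval lay within 2-fold for 60 of 63 genes, the others being ATP5L, NDUFB7 and NDUFAF2. The median SE was 0.206, with 3 against 2 samples. Of the 17 other probe sets of these genes 2 passed, a second one of NDUFA1, which was higher in DFAT (1.35 ± 0.36, SE, limma adjusted p = 0.0407) where the representing one was at -0.44, and a second one of ATP5L, which was lower (-0.87 ± 0.19, SE, limma adjusted p = 0.0154). The median size of a difference was 0.302 between the isolated cells and 0.138 between the cultured cells, and 0.56 and 0.237 over named genes. Of the 24 genes that differed before culture, none passed after it by the representing probe set, while NDUFA1 did by its second one. ATP5S, for example, differed by 1.94 before culture and by 0.16 ± 0.23 (SE) after it, and NDUFB1 by -1.58 and -0.13 ± 0.22 (SE).

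**Figure D4:**
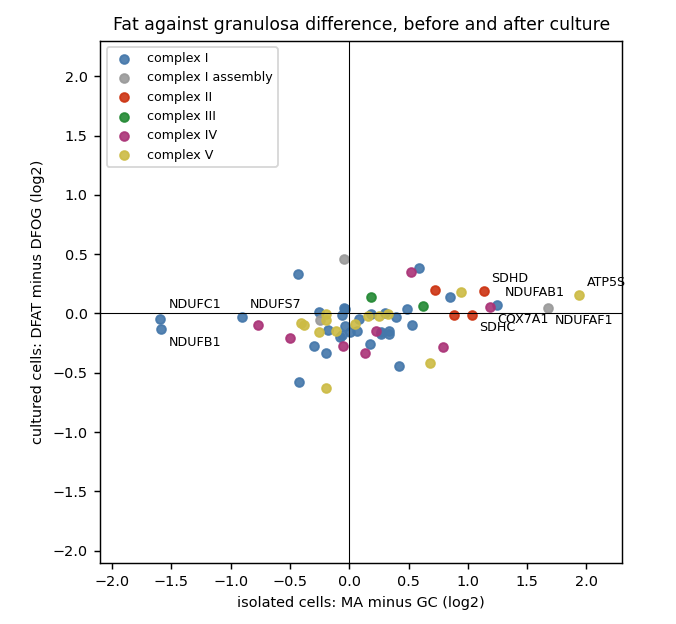
Log2 difference between fat and granulosa lineages for each of the 63 genes, in isolated cells (MA minus GC, horizontal) and in cultured cells (DFAT minus DFOG, vertical), on equal scales and coloured by complex, with no error bars. Points spread from -1.60 to 1.94 horizontally and from -0.63 to 0.46 vertically. Poly-A centring would move all points by -1.35 horizontally and 0.08 vertically.

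Other genes of mitochondrial energy metabolism were read from lists for comparison. The shares of named genes to set beside the counts are 20.4% lower and 20.7% higher in fat cells and 13.4% lower and 17.3% higher in granulosa cells, and the lists, of 6 to 16 genes, were not tested as sets. Of 16 measured citrate cycle and pyruvate dehydrogenase genes, 6 fell and 2 rose in fat cells and 1 fell in granulosa cells. PDHA1, the catalytic subunit of pyruvate dehydrogenase, fell in fat cells from 11.52 ± 0.04 to 9.63 ± 0.64 (SD, n = 3 each, change -1.89), and IDH2, the NADP-dependent isocitrate dehydrogenase, rose from 8.61 ± 0.23 to 11.07 ± 0.20 (SD, n = 3 each, change 2.46). IDH3B, of the NAD-dependent enzyme, fell by -1.30 and DLST, of the oxoglutarate dehydrogenase complex, rose by 0.85. DLD, the dehydrogenase shared by both complexes, fell by -0.89 in fat and -0.73 in granulosa cells. Of 9 genes for other ways of electron entry and cytochrome c, 3 fell in fat cells, ETFDH (-1.42) and ETFB (-1.16), which bring in electrons from fatty acid oxidation, and AIFM1 (-1.22), which takes part in building complex I. In granulosa cells GPD2, the mitochondrial glycerol phosphate dehydrogenase, rose by 2.65 ± 0.38 (SE, limma adjusted p = 0.000391) and SQOR, which oxidises sulphide, by 0.72, while NNT, the transhydrogenase, fell by -1.22.

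The carriers that export ATP and the channels around them had 4 lower and 2 higher genes of 11 in fat cells and 2 higher in granulosa cells. UCP3, an uncoupling protein best known from muscle, fell in fat cells from 9.09 ± 0.09 to 6.01 ± 0.35 (SD, n = 3 each, change -3.09 ± 0.19, SE, limma adjusted p = 4.47e-07). Of the ADP/ATP carriers, SLC25A4, the heart and muscle form, fell by -2.13 and SLC25A5 by -0.61 in fat cells, where SLC25A6 rose by 0.69. In granulosa cells SLC25A5 rose by 0.78 and the outer membrane channel VDAC1 by 0.94, and in fat cells VDAC3 rose by 0.43. Of 12 assembly factors 3 rose and 3 fell in fat cells. BCS1L, which inserts the iron-sulphur protein into complex III, rose by 0.89 and COX10, which makes the haem of complex IV, by 0.74, while ATPAF1, a chaperone of the ATP synthase, fell by -1.39 in fat and -0.83 in granulosa cells and OXA1L, the inner membrane insertase, fell by -0.86 in fat cells.

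Of 6 measured regulators of mitochondrial biogenesis, PPRC1, a coactivator related to PGC-1α, rose in both cell types, by 1.92 ± 0.22 in fat cells (SE, limma adjusted p = 5.16e-05) and 1.89 ± 0.25 in granulosa cells (SE, limma adjusted p = 0.000206). TFB1M, a methyltransferase of mitochondrial ribosomal RNA, rose by 1.11 in fat cells, and SIRT3, a mitochondrial deacetylase, fell by -0.99 in granulosa cells. Of 9 import and inner membrane genes, the receptor TOMM22 rose by 0.67 and the chaperonin HSPD1 (-0.78) and the membrane organiser IMMT (-0.62) fell in fat cells, and none passed in granulosa cells. The list medians in fat cells were -0.29 for the citrate cycle, 0.07 for electron entry, -0.19 for ATP export, -0.21 for assembly factors, -0.07 for biogenesis and -0.17 for import, against -0.30 for the respiratory chain genes. Poly-A centring turned the SLC25A5 changes to 0.02 in fat and -0.01 in granulosa cells, the IMMT change to 0.01 and the SQOR change to -0.07.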

How the data were processed

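RNA from 12 samples was read on the Affymetrix porcine genome array. The values deposited by the authors are log2 expression values made by RMA (robust multi-array averaging) per the submitters' processing notes, with settings and version not given in the sources used here. Per the labels' protocols, 3′ amplification produced the labelled RNA. The values hold no detection calls, array number limits precision, and changes near the floor are understated. Of 24123 probe sets, 124 controls were left out. Of the other 23999, 10069 had 1 symbol in the platform annotation, which can be old, 198 had several and 13732 none here. Probe sets with several symbols, 4 of them matching the member rule, were not used. The titles call the replicates biological, but the animals and cultures behind them were not given. The p-values thus measure only the spread between these samples, which may be technical.

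In R 4.3.3 with limma 3.58.1 a model with 1 mean per group was fitted over 11 samples (7 residual degrees of freedom) and contrasts were tested two-sided. The script was tested on simulated data. Figures used Python 3.11.15, numpy 2.4.6, pandas 2.3.3 and matplotlib 3.10.9. Alternatives were all 12 arrays, replicate number as a block, the mean over probe sets, a dim filter, quantile normalization again, poly-A centring over 36 control probe sets, the actin covariate, array weights, leaving out each array and, added after seeing the data, the block within each lineage. Same-numbered GC and DFOG samples deviated together over all probe sets (r = 0.604, 0.514 and 0.355). MA and DFAT samples did so less (0.0999, 0.168 and 0.126, not all over 0.1). DFOG replicates 2 and 3 were nearly identical, and GC replicates 2 and 3 were the closest GC pair (SD of differences 0.31). The r values therefore cannot show that these numbers match GC to DFOG samples, and the blocks rest on the number alone.

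Members, gene lists and naming rule were chosen with earlier results of these data known. Named were up to 4 members per complex with the largest change past the test whose groups did not overlap in each culture comparison, isoform sets, SDHA to SDHD, the 3 largest per direction in the other comparisons, up to 2 per direction of each pathway list, and, outside this rule and with values known, others needed to spell out small counts. Pathway and marker lists have no set test. Genome positions and sequences were not used here.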

Additional observations from a re-analysis of the deposited data

Results flagged for a closer look

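The following respiratory chain genes changed differently in culture in fat and in granulosa cells by limma's interaction test. The values are the fat change minus the granulosa change on the log2 scale, with limma adjusted p over all probe sets. ATP5S differed by -1.78 (adjusted p = 0.00165), NDUFAF1 by -1.62 (0.00397), NDUFAB1 by -1.17 (0.00305), COX7A1 by -1.13 (0.0214), ATP5D by -1.095 (0.0123), NDUFA4 by -1.08 (0.0309), SDHC by -1.04 (0.0184), SDHD by -0.94 (0.00761), SDHB by -0.89 (0.0437), NDUFA1 by -0.86 (0.012) and NDUFB4 by -0.71 (0.0429). NDUFC1 differed by 1.55 (0.00771) and NDUFB1 by 1.45 (0.00396). Of these 13 genes, NDUFAB1 and NDUFC1 passed the test in both cell types with opposite signs. Each value is that of 1 representing probe set. A second one of ATP5S was at -0.89 and did not pass (limma adjusted p = 0.0952), and a second one of NDUFAF1 was at -1.11 (limma adjusted p = 0.0272). When all probe sets of a gene were averaged, SDHB was at 0.081 (limma adjusted p = 0.869) and NDUFA1 at -0.041 (limma adjusted p = 0.946), and their second probe sets were at 1.06 (limma adjusted p = 0.0214) and 0.78 (limma adjusted p = 0.3). No group had the 4 samples that a search for single outlying samples needs.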

How the results depend on the processing

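The number of genes past the test depended most on the scaling. Centring on the poly-A controls gave 14 genes higher and 3 lower in DFAT than in MA (5 and 22 as reported), 0 higher and 27 lower in DFOG than in GC (3 and 5), 0 higher and 51 lower in MA than in GC (18 and 6), and 38 with a higher and 0 with a lower change in fat than in granulosa cells (2 and 11). The amount of poly-A control added per sample was not given, and the cause of these shifts was not tested. With the actin 3′ minus 5′ difference as a covariate there were 2 genes higher and 14 lower in DFAT than in MA and 1 higher and 2 lower in DFOG than in GC. That difference did not overlap between isolated and cultured cells of either lineage, so the fit cannot fully separate it from culture. Quantile normalization again gave 1 higher and 8 lower in DFOG than in GC and 4 with a higher change in fat than in granulosa cells. All 12 arrays as separate samples gave 7 higher in DFOG than in GC, 1 lower in DFAT than in DFOG and 4 with a higher change in fat than in granulosa cells, and array quality weights gave 6 higher in DFOG than in GC and 1 lower in DFAT than in DFOG. The mean over probe sets and the dim filter, which removed none of the 63 genes, kept every count within 1.5 times. The genes behind the counts changed with the mean over probe sets. For example, 3 of its 5 lower genes in DFOG minus GC were among those reported. So were 15 of its 17 higher genes in MA minus GC and 9 of its 11 with a lower change in fat cells.

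The replicate block over all groups kept every count within 1.5 times, with 2 genes higher and 4 lower in DFOG than in GC. The block within each lineage gave 1 higher and 3 lower in DFOG than in GC. Beyond the calls named above as lost under a block, no called value of a respiratory chain gene lost its call under either block. Leaving out 1 array at a time gave 3 to 5 genes higher and 15 to 24 lower in DFAT than in MA, 1 to 5 higher and 1 to 5 lower in DFOG than in GC, 13 to 18 higher and 4 to 7 lower in MA than in GC, 0 higher and 0 to 1 lower in DFAT than in DFOG, and 2 to 4 with a higher and 6 to 11 with a lower change in fat than in granulosa cells. Where a group was left with 1 sample, that sample is assumed to vary like the others.

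Of 72 called values of respiratory chain genes, 42 kept their call in all alternatives other than poly-A centring and the left-out arrays, 36 kept it with the left-out arrays counted too, and 36 changed sign under poly-A centring. The latter, with their values there, were for DFAT minus MA NDUFV1 (0.036), NDUFA10 (0.028), NDUFAB1 (0.051), UQCR10 (0.15), UQCRB (0.042), COX6A1 (0.0398), COX7C (0.066), ATP5E (0.12) and ATP5G2 (0.057), and for DFOG minus GC NDUFA11 (-0.14) and NDUFAB1 (-0.20). For MA minus GC they were NDUFA5 (-0.86), NDUFA9 (-0.76), NDUFA1 (-0.93), NDUFAB1 (-0.10), NDUFB4 (-0.50), NDUFC2 (-0.82), SDHA (-0.63), SDHB (-0.47), SDHC (-0.31), SDHD (-0.21), UQCRB (-0.73), NDUFA4 (-0.55), COX7A1 (-0.16), COX8H (-0.82), ATP5D (-0.67) and ATP5J (-0.40). For the fat change minus the granulosa change they were NDUFA1 (0.56), NDUFAB1 (0.25), NDUFB4 (0.71), SDHB (0.53), SDHC (0.38), SDHD (0.48), NDUFA4 (0.34), COX7A1 (0.29) and ATP5D (0.33). Of the other pathway genes SQOR (-0.071) and SLC25A5 (-0.0062) for DFOG minus GC, and SLC25A5 (0.0202) and IMMT (0.00702) for DFAT minus MA, did the same. The mean over probe sets turned NDUFA1 to 1.10 for DFAT minus MA and SDHB to 0.081 for the difference between the changes.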

Other observations

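Several genes had a second probe set that went its own way. For NDUFS3, a quinone module subunit of complex I, the representing probe set changed by 0.24 in fat cells and 0.17 in granulosa cells and did not pass, whereas another one fell from 7.69 ± 0.17 to 5.35 ± 0.22 (SD, n = 3 each) in fat cells and from 8.16 ± 0.17 (SD, n = 3) to 5.28 ± 0.49 (SD, n = 2) in granulosa cells (limma adjusted p = 6.33e-06 and 4.94e-06). For ATP5L the representing probe set changed by 0.09 in fat cells, and both of its other probe sets fell, by -1.75 ± 0.17 and -1.18 ± 0.26 (SE). The second COX7C probe set was higher in MA than in GC by 2.555 (limma adjusted p = 3.57e-06), where the representing one differed by 0.14 and did not pass. A second probe set of SDHB fell in granulosa cells, from 9.21 ± 0.34 (SD, n = 3) to 7.91 ± 0.22 (SD, n = 2), where the representing one changed by 0.04. For NDUFA1 the second probe set rose in granulosa cells as well as in fat cells, by 2.11 ± 0.36 (SE, limma adjusted p = 0.00122). Which transcripts these probes read was not tested.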
